A study of Drosophila melanogaster with 6 samples.

Results

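The mRNAs described here encode the proteins of the cytosolic ribosome. They were taken by gene name: a name opening with RpL or RpS (RpLP0, RpLP1 and RpLP2 included), or sta, with the mitochondrial mRp names left out. The rule gave 90 of the 13279 genes named on the array, 53 of the large and 37 of the small subunit, measured by 188 probes, between 1 and 7 for each gene. The rule itself uses no measured value, though it was set with earlier results of these data known. RpL10, RpS2 and RpS21 go under other names in the files and were not members.

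The ribosome reads mRNA on its small subunit and joins amino acids on its large subunit. Each subunit is a core of ribosomal RNA dressed with proteins that a cell makes in equal numbers, and in Drosophila the loss of 1 copy of many of these genes gives the Minute phenotype of slow growth and short bristles. Their mRNAs are short, abundant and used by every growing cell, and RpL32 is a common reference gene for that reason. A number of the genes are present as copies, and some copies are used chiefly in the germline.

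The samples were whole Drosophila embryos of stage 12 - 15, labelled wild type, of the strain UAS-T.g.UPRT without GAL4. All were given a 1-hour pulse of 4-thiouridine, a uridine analogue that tags RNA made during the pulse, and the tagged RNA (TU-RNA) was purified after the pulse, a 1-hour chase or a 3-hour chase. The chase held uridine alone in the UO series and uridine with the transcription inhibitor actinomycin D in the U+actD series. Embryos were pooled for each time point and each of the 6 groups had 1 array, so that the agreement of the 2 series was the only measure of error.

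The arrays differed in brightness. The median net signal (foreground minus local background, in scanner units) of all probes lay between 50 and 71 on the UO arrays and between 162 and 1276 on the U+actD arrays, against background thresholds (the 95th percentile of the negative controls) of 50 to 54 and 108 to 354. Markers of 8 embryonic tissues, elav of neurons and Mef2 of muscle among them, were above background on all 6 arrays, except srp of hemocytes and fat body on 5. The pulse and chase arrays of each series were scaled on 5 (UO) or 4 (U+actD) spike-in transcripts, by 0.411 and 0.320 for the UO and 0.815 and 1.008 for the U+actD chases. Net signals are printed before this scaling, and percentages of the pulse, folds and log2 changes after it. In whole embryos, a change in the number of cells that use a gene cannot be told apart from a change in RNA per cell.

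A large share of the ribosomal protein probes reached the ceiling of the scanner. A probe was called saturated where at least 50% of its pixels were at the scanner ceiling. On the UO arrays 76 (40.4%) of the 188 probes were saturated at the pulse, 97 (51.6%) at the 1-hour chase and 0 at the 3-hour chase. On the U+actD arrays 119 (63.3%), 115 (61.2%) and 95 (50.5%) were saturated. Members made up 63.3% of all saturated probes on the UO pulse array, but 11.3% on the U+actD pulse array, where 1052 probes were saturated, and 52.8% on the U+actD 3-hour array, where 180 were.

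The subunits were saturated alike: 49 of 111 large and 27 of 77 small subunit probes at the UO pulse, and 71 and 48 at the U+actD pulse. In all, 121 member probes were saturated on at least 1 array, 94 on all 3 U+actD arrays and 73 on 5 or more. A saturated value is only a lower bound on the amount of RNA, so a change was measured only where the probe was unsaturated.

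**Figure D1:**
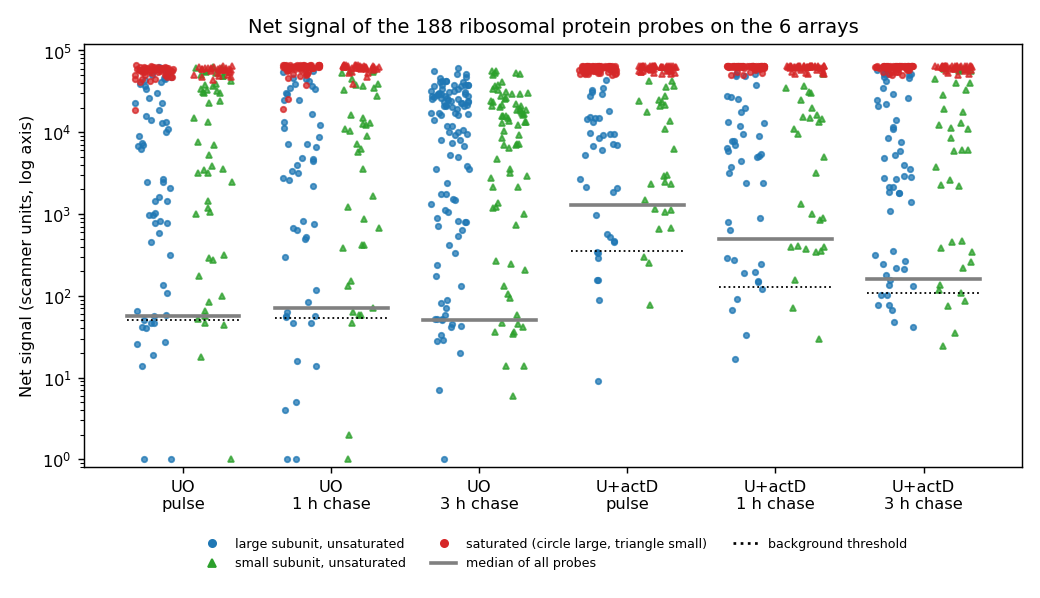
Net signal in scanner units (log axis) of the 188 ribosomal protein probes on the 6 arrays, circles for the large and triangles for the small subunit, red where saturated; signals under 1 are drawn at 1. Grey bars give the median of all probes and dotted lines the background threshold; red points crowd the ceiling on every array except the UO 3-hour chase, which has 0.

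The members sort into 3 kinds by what the arrays could measure. A probe unsaturated on all 6 arrays, and bright enough to be tested, existed for 45 genes (25 large, 20 small; 57 probes), and in 36 of these (21 large, 15 small) such a probe was also above background on all 6 arrays. The 9 genes whose unsaturated probes fell below background on some array were RpL22-like, RpL37b, RpL40, RpL41, RpS7, RpS27A, RpS28a, RpS28-like and RpS29. Another 44 genes, 27 large and 17 small, had tested probes but none unsaturated throughout. RpL10Aa, the remaining gene, had 1 probe, with a net signal of 46, 56.5 and 52 in UO and 291.5, 91 and 67.5 in U+actD, at or below background on 4 of the arrays, and was not tested.

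With actinomycin D, ribosomal protein mRNAs were retained above the typical mRNA. Over the 45 genes with unsaturated probes, the median signal after the 1-hour U+actD chase was 52.4% of the pulse and after 3 hours 34.9%, where the median of all 9512 genes with unsaturated probes was 27.4% and 11.0%. At 3 hours the members ran from 2.31% for RpL3 to 138% for RpS5b, and 44 of 45 were below their pulse signal. Over the 36 genes also above background the medians were 59.6% and 35.5%, beside 26.2% and 9.75% over all 7052 such genes.

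In the scanner signals of the uridine-only chase the same mRNAs stayed near the typical mRNA. The authors' normalized table, described below, gave them higher relative values in UO. The median of the 45 genes was 65.8% of the pulse after 1 hour, where all genes had 62.9%, and 13.9% after 3 hours, where all genes had 14.7%. After 1 hour 8 of the 45 genes were above their pulse signal, RpLP0 at 281% and RpL3 at 280% being the highest, and RpL13A at 19.6% was the lowest. After 3 hours 0 of 45 were above it, and the range was 3.89% for RpL17 to 47.6% for RpLP0.

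Relative to the median gene of each array, the 45 members had a median log2 change of 0.94 after 1 hour and 1.84 after 3 hours in U+actD, where 39 and 42 of the 45 were above 0. In UO the medians were -0.10 and 0.02, with 21 and 23 of 45 above 0. Over all genes the medians were 0.01 and 0.17 in U+actD and -0.16 and 0.11 in UO. At 3 hours 20 members (44.4%) were above the median gene in both series, beside 29.8% of all genes, and 22 (48.9%) were above it in U+actD and below it in UO, beside 27.7%. The opposite, below in U+actD and above in UO, was found for RpL3, RpL41 and RpS29 (6.67%, beside 25.0%), and 0 members were below in both, beside 17.6%. RpL41, RpS29 and, among the 20, RpL22-like, RpL40, RpS7, RpS27A and RpS28-like had unsaturated probes below background on some array. So did RpL37b and RpS28a among the 22. Their sides may rest in part on threshold values. Over the 36 genes also above background, 35 were above 0 in U+actD at 3 hours and 17 in UO.

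The other genes of the translation machinery gave smaller values in U+actD. At 3 hours the median relative change was 0.72 for 71 mitochondrial ribosomal protein genes, of which 61 were above the median gene, and 0.62 for 34 translation factor genes, of which 27 were above. It was -0.30 for 21 genes of ribosome biogenesis, of which 8 were above, and 1.13 for the 4 genes of ribosome-bound proteins (Rack1, Nacalpha, bic and Tctp), of which all 4 were above. In UO at 3 hours the medians of these lists were -0.78, -0.09, -0.58 and 0.14. The mitochondrial genes, which serve another ribosome, thus had the lowest median of the lists in the UO scanner signals. In the normalized table their UO median was 0.53, with 56 of 68 above the median gene, and ribosome biogenesis was lowest at -0.01.

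**Figure D2:**
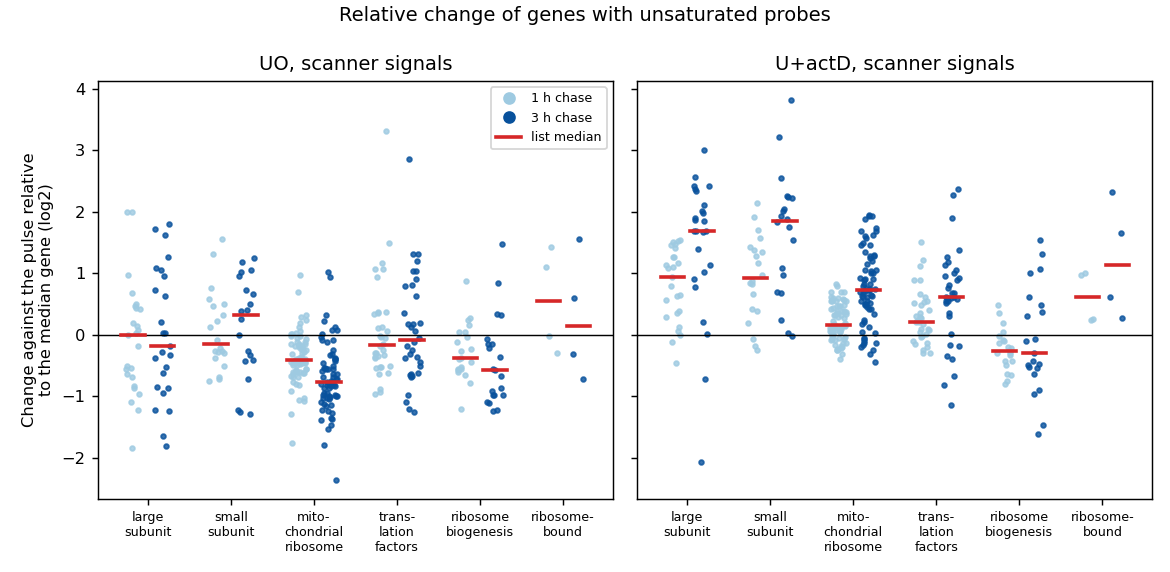
Change against the pulse relative to the median gene (log2) for genes with unsaturated probes, in UO (left) and U+actD (right). Points are genes, light at the 1-hour and dark at the 3-hour chase, and red bars are list medians; at 3 hours in U+actD the large and small subunit medians were 1.68 and 1.85, and that of the mitochondrial ribosome was 0.72.

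Signal strength moved with the relative change, so members were set beside other unsaturated probes of like pulse signal. In U+actD the 20 member probes between 5000 and 20000 had a median 3-hour relative change of 1.85 where the 4979 other probes had -0.18, and the 17 above 20000 had 2.22 where 2907 others had -0.31. Between 1000 and 5000 the values were 0.52 for 12 member probes and 0.14 for the others. Below 1000, where low signals were set to the background threshold, they were 1.71 for 8 member probes and 1.41 for the others.

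In UO the members were close to other probes of like signal, except between 1000 and 5000. Above 5000 the medians were -0.90 for 13 member probes and -0.91 for 267 others, and between 100 and 1000 they were 0.06 and -0.07. Below 100, near the background threshold, both medians were 1.25. The 17 member probes between 1000 and 5000 had 0.07 where the others had -0.53. Signal also moved with the record a probe was designed to. In U+actD the median pulse signal of 44 unsaturated member probes for gene models was 14000 and of 13 for other transcript records 1160, and the 3-hour relative medians were 1.87 and 1.66. In UO the median pulse signals were 1760 and 58, the latter close to the background threshold of 51. The 3-hour relative medians there were -0.09 for gene models and 1.10 for other records, so the UO medians of the members mix in probes near background.

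**Figure D3:**
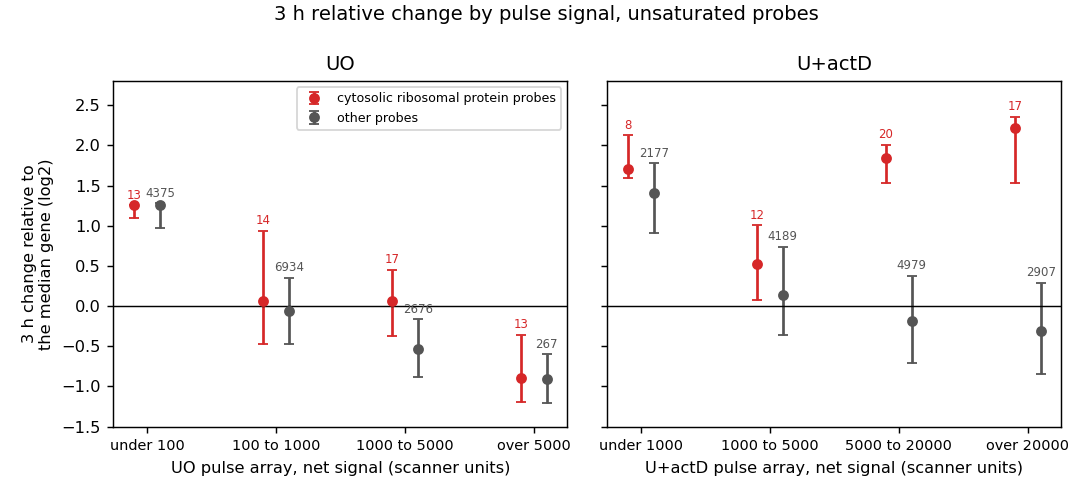
Median 3-hour change relative to the median gene (log2) of unsaturated probes grouped by net signal on the pulse array, in UO (left) and U+actD (right). Red points are ribosomal protein probes and grey points all other probes, bars span the quartiles and numbers count probes; in U+actD the gap is 1.85 against -0.18 between 5000 and 20000, and in UO above 5000 the points are -0.90 and -0.91.

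A test over all genes found that most members fell by the 3-hour chase and could not separate their relative change from 0. limma was fitted on all 6 arrays with the series as a block, which left 2 residual degrees of freedom, and p-values were adjusted by Benjamini-Hochberg over all genes tested. On the spike-in scale 0 of 89 members passed an adjusted p of 0.05 at 1 hour (3 at an unadjusted p under 0.05, beside 30.9% of all genes), where 0.438% of all genes were called lower. At 3 hours 66 of 89 were lower, 36 of 52 large and 30 of 37 small, where 98.5% of all genes were, and their median log2 change was -1.67 beside -2.99 for all genes. With unsaturated probes alone 44 of 45 were lower, beside 98.8%. The count rests on single arrays: it was 17 without the UO pulse, 31 without the UO or the U+actD 1-hour array and 5 without the UO 3-hour array, beside 92.5%, 96.5% and 80.0% of all genes, and 2 with no scaling between arrays, beside 36.4%. All 71 mitochondrial ribosomal protein genes, 42 of 45 translation factor genes, all 23 biogenesis genes and all 4 ribosome-bound protein genes passed at 3 hours.

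Relative to the median gene, limma called 0 of 89 members higher at 1 hour (2 at an unadjusted p under 0.05, beside 1.73% of all genes) and 0 at 3 hours (31 at an unadjusted p under 0.05, beside 11.6%; lowest adjusted p 0.34), where 0.0% of all genes were called at either time. Without the UO pulse array 72 of 89 passed at 3 hours, beside 6.82% of all genes. The difference in slope between the series, U+actD minus UO, was positive in the median (0.89 log2 per hour of chase) and passed in 0 of 89 members (63 at an unadjusted p under 0.05, beside 17.5% of all genes; lowest adjusted p 0.25), where 0.0% of all genes passed. With another background correction (normexp) 77 passed, beside 17.4%. That model had 1 residual degree of freedom. Saturated probes are part of these counts and medians over 89 members, and a probe saturated throughout U+actD cannot show a fall there. With unsaturated probes alone the median slope difference of 45 members was 0.52 log2 per hour, and their median relative change at 3 hours was 0.79. The larger retention in U+actD is therefore a description of these 6 arrays.

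For single members, limma estimates of the 3-hour absolute change (log2, SE 0.70) were called in all 7 members named here and depended on the setting, least so for RpL3. The SE was the same for every member, so these p-values follow the size of the estimate and do not measure how far the 2 series of a gene were apart. With unsaturated probes RpL3 kept 41.8% of its pulse after 3 hours in UO and 2.31% in U+actD. RpL3 had -2.81 (adjusted p 0.000109) and kept its call in 14 of 15 other settings, losing it with no scaling between arrays (adjusted p 0.0761). RpS14b had -2.46 (adjusted p 0.00065), kept in 9 of 14, and RpS5a had -2.17 (adjusted p 0.00248), kept in 7 of 14. RpL12 had -1.67 (adjusted p 0.0186), kept in 6 of 15, and RpL32 had -1.59 (adjusted p 0.0249), kept in 4 of 12. Every RpL32 probe was saturated on some array, so its value is not a measured fall. Saturated probes also entered the values of RpL3, RpL12, RpLP0 and RpS5a. Their unsaturated probes alone gave -3.35, -1.93, -1.65 and -2.63. RpLP0 had -1.55 (adjusted p 0.0285), kept in 7 of 14, and RpS5b had -1.41 (adjusted p 0.0463), kept in 5 of 14. All 7 lost the call with no scaling, and all except RpL3 lost it without the UO 3-hour array. Without the UO pulse RpL12, RpL32, RpS14b, RpS5a and RpS5b lost it, without the UO or the U+actD 1-hour array RpL12, RpL32, RpS5a and RpS5b, and without the U+actD pulse or 3-hour array RpLP0. The sign turned in some settings for RpLP0, RpS5a and RpS5b. Their highest adjusted p over the settings was 0.33 for RpS14b, 0.619 for RpL12, 0.68 for RpLP0, 0.789 for RpS5a, 0.884 for RpS5b and 0.923 for RpL32.

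Half-lives came from a line through the natural log of the 3 signals of a series, kept where the adjusted R2 was at least 0.75. In U+actD the unsaturated members had a median half-life of 113 min over the 27 of 45 kept, with quartiles of 69.8 and 135 min, beside 53.9 min for all genes. Large and small subunit genes were alike at 113 and 108 min. In UO the median was 53.8 min over 34 of 45, beside 58.4 min for all genes. Mitochondrial ribosomal protein genes had 63.1 min in U+actD and 48.2 min in UO. When saturated probes were included the U+actD median was 181 min over 21 of 89 genes, and 33 of 89 did not fall.

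The gap between the subunits was small, and its sign depended on the probes used. Over unsaturated probes the large subunit median was 0.14 above the small subunit median after 1 hour in UO and 0.51 below it after 3 hours. In U+actD it was 0.02 above after 1 hour and 0.17 below after 3 hours. With probes also above background the large subunit was 0.33 lower in UO and 0.25 lower in U+actD at 3 hours. With saturated probes included the 3-hour gap was 0.24 in UO and 0.12 in U+actD, both with the large subunit higher. No test was made over genes, which are not replicates.

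Among the large subunit genes, the stalk proteins recruit the translation factors that split GTP. RpLP0, the base of the stalk, had 2 unsaturated probes, one with net signals of 2438, 12251 and 2401 at the UO pulse, 1-hour and 3-hour chase and 30710, 28123 and 5925 in U+actD. Its other probe gave 778, 7225 and 1749 and then 15446, 9575 and 3594. Both were highest at the 1-hour chase in UO and at the pulse in U+actD.

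RpLP1 and RpLP2, which form the tip of the stalk, were saturated on 5 and 5 of the arrays. RpLP2 gave 62996.5, 65397.5 and 31580.5 in UO and 59435, 64167.5 and 59452.5 in U+actD, unsaturated only at the UO 3-hour chase, where it was at least 6.23-fold lower than at the pulse on the spike-in scale. For the stalk probe of RpLP1 the same bound was 4.94-fold.

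The genes of the large subunit core were saturated for the most part. RpL4, whose protein lines the exit tunnel, gave 53781, 59574 and 47409.5 in UO and 57650.5, 65270.5 and 64230 in U+actD and was at least 3.54-fold lower at the UO 3-hour chase. RpL5 and RpL11 carry the 5S ribosomal RNA into the subunit. All 7 RpL5 probes were saturated at the U+actD pulse, and the one that was unsaturated on the other arrays gave 6284, 29657 and 7950 in UO and 61731, 49321 and 20817 in U+actD. It was at least 2.94-fold lower after 3 hours of U+actD. A probe of RpL11 went from 63135 at the UO pulse to 19167 at 3 hours, at least 10.3-fold lower, and stayed saturated through U+actD.

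RpL32, the reference gene, showed how little of a course a saturated probe holds. Its net signals were 45387, 63164 and 29503 in UO and 62688, 64460.5 and 64118 in U+actD, all saturated except the UO 3-hour chase, and its U+actD change was not measured. The bound in UO was at least 4.80-fold lower.

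RpL12, also at the stalk base, had 1 unsaturated probe, with 14009, 16903 and 3883 in UO and 54352, 51958 and 42068 in U+actD. It kept 78.0% of its pulse signal after 3 hours of U+actD and 8.88% in UO, with relative changes of 3.00 and -0.62. At the U+actD pulse 25% of its pixels were at the ceiling, and 5% at the 1-hour chase, so 78.0% may be too high.

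The highest mean 3-hour relative changes of the large subunit over both series belonged to RpL40, RpL7A and RpLP0. RpL40 is made as a fusion with ubiquitin. Its unsaturated probe was at or below background on 4 arrays (14, 16 and 52 in UO and 89, 120 and 178 in U+actD), so its rank rests on threshold values, and its other probe was saturated on 4 arrays. RpL7A gave 964, 2200 and 790 in UO and 9442, 8980 and 3964 in U+actD, and kept 26.2% and 42.3% at 3 hours.

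The lowest were RpL37a, RpL3 and RpL7. RpL37a, which current annotation calls RpL37-1, gave 810.5, 755.5 and 239.5 in UO and 18210.5, 6330 and 1781.5 in U+actD and kept 9.46% and 9.86% at 3 hours, near the median gene in both series. RpL7 gave 451, 524 and 82 in UO and 2111, 897 and 350 in U+actD and kept 5.82% and 16.7%. Its other probe was saturated.

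RpL3, whose protein reaches towards the peptidyl transferase centre, differed by probe. The 2 probes for the transcript CG4863-RC gave 109, 668 and 133, and 64.5, 488.5 and 90, in UO, then 14929, 3157 and 311, and 8572, 2379 and 216.5, in U+actD. Both were highest at the 1-hour chase in UO and fell at each step in U+actD. Their 3-hour relative changes were 1.57 and 1.76 in UO and -2.22 and -1.94 in U+actD, the lowest of all unsaturated member probes in U+actD. Their UO pulse signals stood close to the background threshold of 51.

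Of the 3 probes for CG4863-RE, one gave 1427, 3329 and 413 in UO and 63619, 19630 and 1384 in U+actD and was at least 45.6-fold lower after 3 hours of U+actD. Another gave 10843, 45708 and 9132, then 57796, 61085 and 26411, and was at least 2.17-fold lower. The last was saturated on all 3 U+actD arrays, at 64455, 61103 and 60313. The probes of this gene therefore held both the steepest fall and no measurable fall among the members in U+actD. A probe for CG4863-RD, with 27.5, 5 and 28 in UO, was not tested.

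Other genes with at least 2 unsaturated probes, 10 in all with RpL3, could differ by probe as well. RpS28-like and RpS29 had probes on both sides of the median gene in U+actD at 3 hours, and RpL37b in UO.

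**Figure D4:**
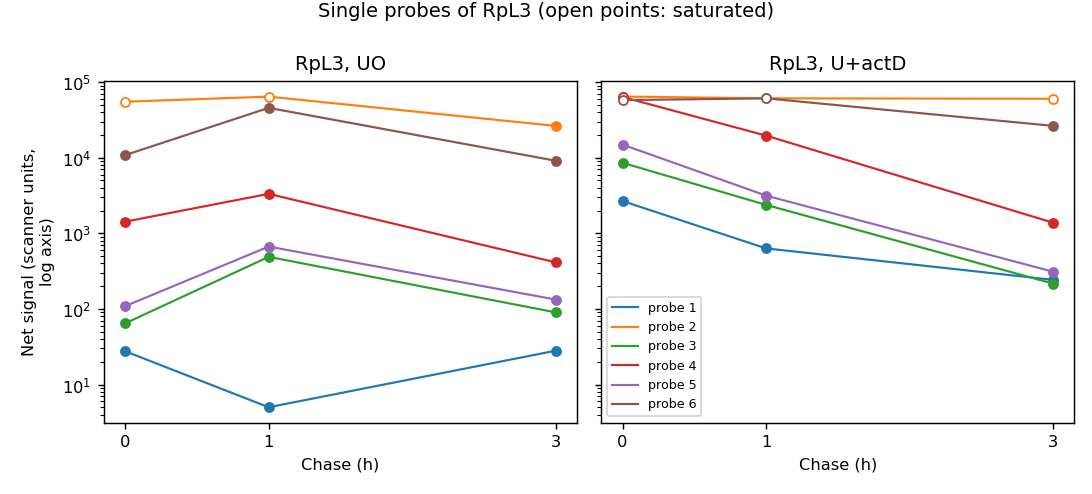
Net signal (scanner units, log axis) of each probe of RpL3 over the chase in hours, in UO (left) and U+actD (right); lines join 1 probe and open points are saturated. In U+actD probe 4 falls from 63619 to 1384 while probe 2 stays between 60313 and 64455.

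Among the small subunit genes, RpS3, RpS9 and RpS6 had no probe that was unsaturated on all 6 arrays. RpS3, at the mRNA entry, gave 54155, 65350 and 53726 in UO and 61240, 63350 and 60525 in U+actD from one of its probes. It was at least 3.15-fold lower at the UO 3-hour chase if that bright signal was not itself clipped. Its net signals at the UO pulse and 3-hour chase were nearly equal, so nearly all of this fold comes from the spike-in scaling. RpS9, which helps to set decoding accuracy, gave 55701, 63400.5 and 37874 and was at least 4.59-fold lower. RpS6, the target of S6 kinase, gave 43740, 47308 and 17954 and was at least 7.61-fold lower. These probes of all 3 genes were saturated throughout U+actD.

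The gene sta could be followed. This gene, known for its stubarista phenotype and the homologue of the laminin receptor, gave 2477, 12472 and 2125 in UO and 21806, 16370 and 6129 in U+actD from its 1 unsaturated probe. It stood at 207% of its pulse after 1 hour of UO and at 27.5% after 3 hours, and it kept 28.3% in U+actD.

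The small subunit genes with the highest mean relative change were RpS5b, RpS10b and RpS27A, and RpS19b and RpS28-like were among the lowest. RpS27A, the second ubiquitin fusion, gave 52, 2 and 46 in UO and 668, 394 and 219 in U+actD, above background in UO only at the pulse, and kept 33.0% in U+actD. RpS19b gave 270, 380 and 95 in UO and 2488, 1309 and 384 in U+actD and kept 11.3% and 15.6%. RpS28-like was below background on at least 1 UO array at each of its probes and kept 9.97% in U+actD.

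Of 14 pairs of copies, 9 had an unsaturated probe for both. The copies of a pair can be alike in sequence, and whether a probe tells them apart was not tested, so each value is that of the probe named for the copy. No pair has a test of its own, since each copy has 1 array at each time.

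RpS5a, the ubiquitous copy, and RpS5b, known for its use in the female germline, were both measured. RpS5a gave 1170, 1667 and 209 in UO and 24711, 15168 and 11162 in U+actD. RpS5b gave 14847.5, 27695.5 and 4768.5 in UO and 20956.5, 30995 and 28609.5 in U+actD, the only unsaturated member above its pulse after 3 hours. RpS5b kept 138% and RpS5a 45.5% in U+actD, and 10.3% and 5.72% in UO, so that the relative change of RpS5b was higher by 1.60 and 0.85 on the log2 scale. The germ cell marker vas was above background on all 6 arrays, and its part in these values was not tested.

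RpL37b, called RpL37-2 in current annotation, also kept more of its pulse signal than its partner in U+actD. Its brighter probe gave 315, 296 and 20 in UO and 2069, 2402 and 1796 in U+actD, where RpL37a fell from 18210.5 to 1781.5. Over its 2 probes the relative change of RpL37b at 3 hours was higher by 2.40 in U+actD and by 0.34 in UO. These 2 values rest in part on threshold values, since its other probe was below background at the U+actD pulse and 3-hour chase and the brighter one at the UO 3-hour chase. The brighter probe alone kept 87.5% in U+actD.

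RpS28 had 3 copies on the array. RpS28b gave 5269, 10459 and 2918 in UO and 28016, 25121 and 13012 in U+actD, and RpS28a gave 287, 422 and 36 and then 2911, 3169 and 2628. RpS28a kept 91.0% in U+actD, RpS28b 46.8% and RpS28-like 9.97%. In UO RpS28a was below background at 3 hours, and its 5.58% is the threshold over the pulse. RpS28-like was lower than RpS28b by 2.23 in U+actD and higher by 0.34 in UO, where it too was below background at 3 hours.

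RpS14a and RpS14b lie next to each other as near-identical copies, so their separate values are uncertain. RpS14a gave 1458, 3517 and 741 in UO and 6162, 5007 and 2188 in U+actD from its unsaturated probe. RpS14b gave 13334, 16105.5 and 2780, then 42271.5, 37189.5 and 19288.5, from one probe and 7702, 7135 and 1228, then 17545, 15109 and 12223, from another. RpS14b was higher in relative change by 0.67 in U+actD and lower by 1.48 in UO.

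RpS10b, the ubiquitous copy, gave 3517, 14865 and 3552 in UO and 23166, 19596 and 8564 in U+actD. RpS10a, known for germline use, gave 1013.5, 1214 and 262.5 in UO and 651, 390 and 259.5 in U+actD. The copies differed by 0.11 in U+actD and by 1.96 in UO, where RpS10b was the higher.

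RpL34a gave 12979.5, 11328 and 1762.5 in UO and 27486.5, 25643 and 14232 in U+actD, and RpL34b gave 10173, 24673 and 3575 and then 29360, 26833 and 11471. They were close in U+actD, with RpL34b lower by 0.41 at 3 hours, and parted in UO, with RpL34b higher by 1.37.

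The -like genes are a mixed set, since in yeast the relatives of RpL7-like, RpL24-like and RpLP0-like act in ribosome assembly. RpLP0-like gave 7409.5, 8683.5 and 1327.5 in UO and 43692.5, 13520 and 8563.5 in U+actD. It was lower than RpLP0 by 3.05 in UO and 0.11 in U+actD at 3 hours, and by 2.54 and 1.28 at 1 hour. RpL7-like gave 6771, 13261 and 1494 in UO and 35230, 17496 and 10893 in U+actD and was above RpL7 by 0.28 and 0.90.

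For the other 5 pairs a difference was not measured. RpL24 and RpL24-like were both saturated at the U+actD pulse, RpL24-like falling to 38216.2 and 24557.8, at least 1.90-fold and 2.39-fold lower, while RpL24 stayed saturated. RpL22 had 3 probes, each saturated throughout U+actD, beside RpL22-like, known for its use in the male germline, at 522, 270 and 132.5. RpS19a was saturated on all U+actD arrays, and so were both RpS15Aa and RpS15Ab. RpL10Ab was saturated on 5 arrays where RpL10Aa was at background.

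**Figure D5:**
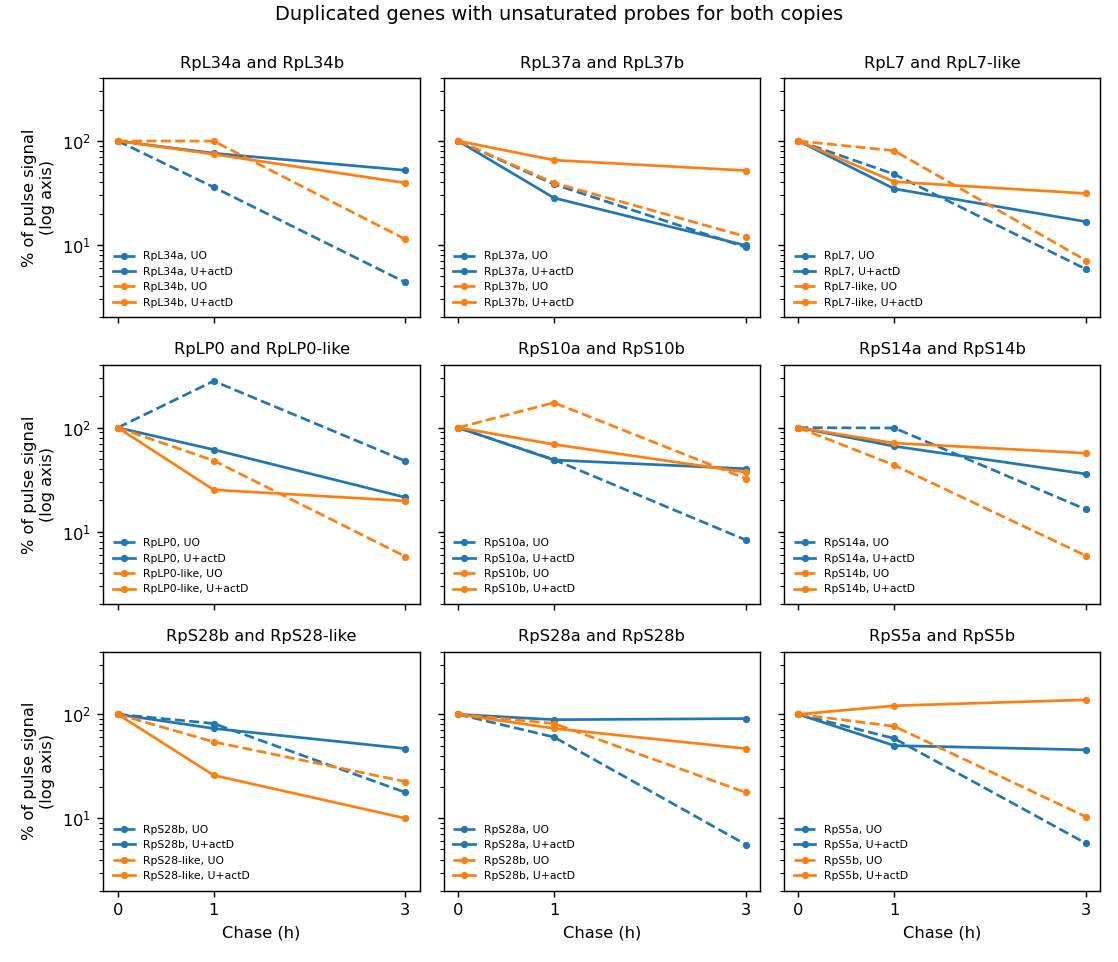
Signal as % of the pulse (log axis) over the chase in hours for the 9 pairs of copies with unsaturated probes, blue for the first and orange for the second copy, dashed for UO and solid for U+actD. RpS5b ends at 138% in U+actD while RpS5a ends at 45.5%, and RpL37b, in part at the background threshold, ends at 51.9% while RpL37a ends at 9.86%.

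For probes saturated at the pulse alone, a fall could be bounded, provided the chase signal was not itself clipped in part. In UO all 76 probes saturated at the pulse were unsaturated at 3 hours, at least 5.94-fold lower in the median, with bounds from 1.12-fold (RpL37A, a gene apart from the RpL37 copies) to 14.3-fold (RpS12). In U+actD 94 of the 119 were still saturated at 3 hours and have no fold, 23 were bounded at a median of at least 1.27-fold lower, and 2 had no bound above 1. After the 1-hour chase 113 of 119 in U+actD and 75 of 76 in UO were still saturated. In UO a further 22 probes became saturated at 1 hour. On the UO pulse and 1-hour arrays 4 and 6 member spots had a local background above 1000, the highest being 37526 and 43052, and all of them were saturated.

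The 44 genes with no probe unsaturated on all 6 arrays carried these bounds. In 13 of them 14 probes were unsaturated on all 3 UO arrays and had a measured UO course, with a median of 52.5% of the pulse after 1 hour and 8.38% after 3 hours. The 3-hour range was 5.90% for RpL22 to 40.5% for RpL5. In the large subunit the 44 genes included RpL4, RpL5, RpL6, RpL8, RpL10Ab, RpL11, RpL14, RpL15, RpL19, RpL22, RpL23A, RpL24, RpL24-like, RpL27, RpL28, RpL29, RpL30, RpL31, RpL32, RpL36, RpL36A, RpL37A, RpL38, RpL39, RpLP1 and RpLP2. In the small subunit they included RpS3, RpS3A, RpS4, RpS6, RpS9, RpS12, RpS13, RpS15Aa, RpS15Ab, RpS16, RpS18, RpS19a, RpS24, RpS25, RpS27 and RpS30. With saturated probes included the median relative change of the 89 members was -0.48 and -0.003 in UO and 1.53 and 3.09 in U+actD at 1 and 3 hours, and values at the scanner ceiling are part of these medians.

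The normalized table gave a second account of UO. Its U+actD values were the scanner signals times a factor and its UO values were not, so UO could be read from either source. In the table the members were retained in UO too: the median relative change of 86 members was 0.86 at 1 hour and 2.13 at 3 hours, with 83 and 84 above the median gene, beside 1.66 and 3.43 in U+actD. For the 13 members with unsaturated table values the medians were 0.90 and 0.74 in UO and 0.73 and 1.77 in U+actD, with 10 and 12 of 13 above at 3 hours. The study's own gene ontology analysis of the uridine-only chase listed the cytosolic ribosome as enriched among the most stable mRNAs. Which source holds the labelled UO arrays could not be settled.

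Genes followed in both sources could differ between them in UO. RpL35 had a 3-hour relative change of 1.73 in the UO table, where the scanner gave -0.85, and 2.52 in the U+actD table. RpL12 had 1.24 where the UO scanner gave -0.62. RpL3 had -0.76, where the UO scanner gave 1.62, and -1.84 in the U+actD table. It was below the median gene in the U+actD scanner values as well.

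Tested on the table, limma called 58 of 86 members higher than the median gene at 3 hours, where 1.51% of all genes were called. With unsaturated table values alone 0 of 13 were called (8 at an unadjusted p under 0.05), beside 0.0% of all genes. For the absolute change 11 were lower, where 94.7% of all genes were, and 1, RpLP0, was higher at 1.36 (adjusted p 0.0442), where 0.0505% were. The slope difference between the series passed in 2 members, beside 2.49% of all genes. Saturated probes enter these counts for most members, since only 13 of the 86 had unsaturated table values. In the scanner signals 94 member probes were saturated on all 3 U+actD arrays. Such a probe cannot show a fall, so its relative change rises as the median gene falls. The 58 calls are therefore not a measure of retention. On the UO table arrays 11, 7 and 8 member probes stood at the very ceiling of their array.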

How the data were processed

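The authors pulse-labelled embryos, purified TU-RNA, added spike-in transcripts, labelled with Cy3 and hybridised 1 Agilent array for each of the 6 samples. Each deposited scanner file gives, spot by spot, foreground and local background intensity and the percent of pixels at saturation. The authors also deposited a normalized table of intensity values; its UO ceilings differ from those of the UO scanner files, and per the study's methods signals within a series were normalized on the spike-in and chase to pulse ratios were set to equal trimmed means between series; whether the table holds that second step is not stated. No column of the authors' own comparisons was used.

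Net signals were averaged over spots of a probe, set to the background threshold where lower, scaled on spike-ins within a series and taken as log2; the relative scale subtracts each array's median gene. Spike-ins were used where above 2 times the threshold and under 50000. Genes are means over tested probes (9812 genes), named through the platform and RefSeq tables. limma 3.58.1 in R 4.3.3 fitted all genes with Benjamini-Hochberg adjustment; figures used matplotlib 3.10.9 in Python 3.11.15. The fit was tested on simulated data. With 1 array for each group, the number of arrays limits the precision, and p-values measure the spread between the series. For the absolute change on the scanner signals that spread was pooled over genes into 1 value, and is not that of a single gene. Members and lists were chosen with earlier results of these data known. Named genes are both copies of each pair, the 3 highest and 3 lowest of each subunit by mean 3-hour relative change, and genes fixed by role; RpL13A, RpL17, RpL35, RpL41, RpS12, RpS29 and RpL37A were named after their values were seen. Sequences were not used here, and a few members are counted but not reported by name here.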

Additional observations from a re-analysis of the deposited data

Results flagged for a closer look

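At 3 hours 25 of 45 members were on opposite sides of the median gene in the 2 series. Among them RpL37b, RpL41, RpS28a and RpS29 had unsaturated probes below background on some array. For 7 of the 25 each series was more than 1 from the median gene on the log2 scale. With 1 array for each time, the 3-hour difference itself was not tested. The slope difference between the series was tested and did not pass in any of the 7. The 7 follow. The difference in relative log2 change, U+actD minus UO, was 4.51 for RpS28a (-1.29 in UO, where its 3-hour signal was below background, and 3.22 in U+actD), 4.06 for RpL34a (-1.65 and 2.42), 3.76 for RpS14b (-1.22 and 2.54), 3.67 for RpL17 (-1.81 and 1.87), 3.47 for RpS5a (-1.25 and 2.22) and 2.26 for RpLP0-like (-1.25 and 1.02). RpL3 went the other way, at -3.70 (1.62 in UO and -2.08 in U+actD). Over all 89 tested members the median at 1 hour was -0.48 in UO and 1.53 in U+actD, a difference of 2.01, and saturated probes are part of that value.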

How the results depend on the processing

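Counts below are of members past a limma adjusted p of 0.05, and 2 of the settings, the normalized table with unsaturated values only and probes both unsaturated and above background on all arrays, were chosen after seeing the data. The absolute fall at 3 hours was passed by 66 of 89 members, beside 98.5% of all genes. It was passed by 23 with no filter on dim probes, and by 2 with no scaling between arrays, beside 36.4% of all genes for the latter. With the normalized table for both series 11 passed, beside 94.7%, and with the table for UO alone 10. With unsaturated table values 8 of 13 passed, and with probes unsaturated and above background 35 of 36. The last 2 test fewer genes. A count given without its share over all genes is not a result about the members. Leaving out 1 array at a time gave 5 (without the UO 3-hour chase) to 80 (without the U+actD pulse). At 1 hour the count went from 0 to 1 with the table for UO alone. The relative change passed in 0 members, and in 58 and 54 at 3 hours with the table for both series and for UO alone; leaving out 1 array gave 0 to 3 at 1 hour and 0 to 72 at 3 hours, the highest without the UO pulse in each case, and 1 without the U+actD pulse. For the relative change at 3 hours with the table for both series, 1.51% of all genes passed. The slope difference passed in 77 with normexp background correction, beside 17.4% of all genes. It passed in 2 with the table, beside 2.49%, and in 1 with the table for UO alone. A lone array left at a time point was assumed to vary like the others. Saturated probes are part of these counts, except where only unsaturated probes or values were used. The cause of these differences was not tested.

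The median half-life in UO, 60.5 min over all tested probes, was 147 min with the table, for both series or for UO alone. That value rests on 10 of 86 members. The median was 53.8 min with unsaturated probes, 96.2 min with unsaturated table values (5 of 13 members) and 53.3 min with probes also above background. In U+actD the median half-life went from 181 min to 89.5 min with the table. That value rests on 7 of 86 members, and 70 of the 86 did not fall. With unsaturated table values the median was 79.4 min over 7 of 13 members, and over all falling members of the main setting it was 236 min. The median relative change in UO at 1 hour, -0.48, was -0.10 with unsaturated probes, 0.001 with no saturated pixel, 0.14 with probes also above background and 0.90 with unsaturated table values; at 3 hours, -0.003, it was 0.74 with unsaturated table values and -0.10 against a trimmed mean of all genes. In U+actD the same 4 settings gave 0.94, 0.93, 1.19 and 0.73 at 1 hour, with 1.44 against the trimmed mean, and 1.84, 1.85, 1.94 and 1.77 at 3 hours. For single genes the sign turned for RpS5a (0.57 with the table), RpS5b (0.09 with the table and 0.30 without the UO 3-hour array, lowest -3.12) and RpLP0 (1.36 with the table and 0.26 with the table for UO alone). The series was the block in every fit, which pairs the pulse and chase arrays; with 1 array in each group no further replicate pairing exists. Saturation limits the bright probes, and signal near background limits the dim ones.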
